A study of Mus musculus with 18 samples.

Results

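The regions described here were 1348 sites in the mouse genome that GATA6 bound soon after its induction and then lost, that pluripotency transcription factors (PTFs) already occupied at d0, and that SOX17 bound as well. They were the entries of the deposited table of GATA6 binding regions whose GATA6 class is Transient, whose PTF class is bound from d0 and whose SOX17 class is bound, and they made up 3.18% of all 42403 regions. The regions were thus chosen by binding values that the authors had put into classes, so that the time course of GATA6, the PTF peaks and the SOX17 peaks only describe how these regions were chosen. The authors gave the classes as names, and the signals behind them were not used here, so no region can be placed just inside or just outside a threshold. For comparison, 3 classes were used that differ from these regions in 1 criterion each. The first holds 3961 Transient regions with PTFs from d0 and without SOX17, the second 2901 Early&Constant regions (bound early by GATA6 and kept) with PTFs from d0 and SOX17, and the third 750 Transient regions with SOX17 and without any PTF.

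GATA6 is a zinc finger factor that drives embryonic stem (ES) cells towards primitive endoderm, and SOX17 is an HMG box factor that appears in the same lineage. OCT4 and SOX2 hold the pluripotent state and bind DNA side by side on a composite OCT4:SOX2 motif, while the nuclear receptor ESRRB binds an extended half-site and helps to keep naive pluripotency. SOX17 recognises nearly the same core letters as SOX2, and with OCT4 it prefers a composite site in which the base between both half-sites is missing.

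The cells of the series were KH2 ES cells of genotype C57BL/6 x 129/Sv that carry a doxycycline (Dox) inducible Gata6 cassette and were grown with LIF on feeder cells. Dox was given at 1 ug/mL, and chromatin was digested with MNase in 6 groups of 3 libraries each (18 in all), untreated cells at d0 (0 h) and cells after 8, 16, 24, 48 and 96 h of Dox. All groups carry the cassette, and every sample is of 1 cell line. None of the values used here comes from an MNase library, and the columns used give the deposited classes and motifs without counts or depth.

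Many of the regions held related, diverged copies of a few sequences. They are shown first because copies of 1 sequence are not independent sites. The largest family also holds many of the SOX17 and ESRRB motifs described later. Regions were put in a family when the sequences within 150 bp of their GATA6 summits (the base with the highest GATA6 signal) shared at least 20 words of 12 bases, in either orientation, directly or through other members. This gave 5 families of 10 or more regions, with 154, 68, 22, 20 and 18 members, together 282 regions or 20.9%. Each window holds 290 words. The median number shared with the nearest other member was 78, 80, 106, 78 and 38 in families 1 to 5, and the highest was 130. For comparison, families were also formed over the 4 classes together, at 50 or more shared words. Those of 10 or more regions held 243 of the 1348 regions (18.03%) and 436 of 3961 (11.01%) without SOX17. They held 235 of 2901 (8.10%) in the Early&Constant class and 41 of 750 (5.47%) without PTFs. Such copies were thus found in all 4 classes, and the differences between these shares were not tested. The windows below reach 100 bp to each side of the summit and were taken from the reference genome (GRCm38, the mm10 build) and written 5′ to 3′ on the strand given, and capitals mark the best match of each motif. Both windows of the largest family were intergenic, on chromosomes 11 and 6, and they hold a SOX17 motif (the capitals AACAATAGA, on the minus strand of the line as printed TCTATTGTT) followed by an ESRRB motif (GCAAGGTCAAG or GCAAGGTCAAA). Only 66 of the 154 windows of this family hold both motifs.
family 1, chr11:6853455-6853655 (- strand): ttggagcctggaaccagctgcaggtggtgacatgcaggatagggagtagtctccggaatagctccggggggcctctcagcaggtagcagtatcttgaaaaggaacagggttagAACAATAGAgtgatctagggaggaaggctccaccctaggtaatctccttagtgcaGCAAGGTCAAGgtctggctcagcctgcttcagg
family 1, chr6:5576929-5577129 (+ strand): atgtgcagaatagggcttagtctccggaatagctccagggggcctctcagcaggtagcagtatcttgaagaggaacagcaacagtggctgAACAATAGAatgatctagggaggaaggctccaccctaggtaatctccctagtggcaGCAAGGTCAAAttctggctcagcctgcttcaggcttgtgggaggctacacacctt
Family 2 is shown by an intergenic copy on chromosome 7, in which the capitals mark a GATA6, an OCT4:SOX2 and a SOX17 motif in that order. A GATA6 motif is present in only 33 of the 68 windows of this family.
family 2, chr7:4313272-4313472 (- strand): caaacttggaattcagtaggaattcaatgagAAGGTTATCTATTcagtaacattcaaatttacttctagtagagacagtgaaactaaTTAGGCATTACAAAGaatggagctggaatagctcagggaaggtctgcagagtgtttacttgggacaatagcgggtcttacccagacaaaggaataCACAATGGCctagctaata
Family 3 is shown by a copy on chromosome 16, intergenic and 9209 bp from the nearest start of a coding gene (Eif4a2), with a SOX17 motif and an OCT4:SOX2 motif, which is present in only 5 of the 22 windows of this family.
family 3, chr16:23098135-23098335 (- strand): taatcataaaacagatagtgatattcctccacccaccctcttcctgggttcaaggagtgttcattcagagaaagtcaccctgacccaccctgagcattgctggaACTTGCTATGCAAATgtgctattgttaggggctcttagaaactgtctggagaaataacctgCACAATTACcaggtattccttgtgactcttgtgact
Family 4 is shown by copies in introns of Anxa10 (chromosome 8) and Kcnj6 (chromosome 16), in which an OCT4:SOX2 motif (the capitals ATTTGTAAAATAAAG) stands before a GATA6 motif.
family 4, chr8:62079019-62079219 (+ strand): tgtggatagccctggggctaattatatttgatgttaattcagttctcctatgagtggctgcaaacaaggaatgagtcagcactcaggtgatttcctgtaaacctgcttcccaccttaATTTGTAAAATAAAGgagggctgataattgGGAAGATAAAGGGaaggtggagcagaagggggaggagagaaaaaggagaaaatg
family 4, chr16:94855092-94855292 (+ strand): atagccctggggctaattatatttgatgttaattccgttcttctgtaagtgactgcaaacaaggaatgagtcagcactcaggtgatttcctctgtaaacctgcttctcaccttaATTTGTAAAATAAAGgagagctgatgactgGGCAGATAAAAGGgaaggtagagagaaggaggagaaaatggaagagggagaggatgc
Family 5 is shown by an intergenic copy on chromosome 1 with its OCT4:SOX2 motif (GATTGAGTTGCAAAG).
family 5, chr1:163163776-163163976 (- strand): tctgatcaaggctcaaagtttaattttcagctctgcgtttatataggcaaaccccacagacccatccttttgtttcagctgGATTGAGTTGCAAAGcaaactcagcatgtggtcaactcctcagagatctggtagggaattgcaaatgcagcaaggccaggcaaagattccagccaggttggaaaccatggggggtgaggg

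Single regions with the highest motif score or with several motifs are shown to give the range of sites among the 1348 regions. The motif score is the log-odds match to the matrix the authors used. The highest scores within such windows were 15.2 for GATA6 in a closed intergenic region 46895 bp from the start of Sestd1, 12.8 for SOX17 in an intron of Msrb2, 20.4 for OCT4:SOX2 in an intergenic region 11818 bp from the start of Slain2, and 18.5 for ESRRB in an intergenic region far from any coding gene. Over all regions the highest SOX17 and ESRRB scores were also 12.8 and 18.5, and among equal scores the first by position is shown. The next 4 lines give the motifs of the named regions in capitals with 20 bases on each side.
GATA6, chr2:77327422-77327474 (+ strand): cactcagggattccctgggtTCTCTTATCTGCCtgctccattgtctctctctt
SOX17, chr2:19381160-19381208 (+ strand): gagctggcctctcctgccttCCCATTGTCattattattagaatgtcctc
OCT4:SOX2, chr5:72902502-72902556 (+ strand): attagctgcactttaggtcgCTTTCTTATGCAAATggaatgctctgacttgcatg
ESRRB, chr13:11274064-11274114 (+ strand): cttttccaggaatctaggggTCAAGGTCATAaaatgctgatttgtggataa
In 36 of the 1348 windows (2.67%) all 4 motifs were present. Those with the highest summed scores lay on chromosomes 6, 16 and 4, all intergenic. In the first, closed at d0 and 26010 bp from the start of Zfp777, the capitals mark an OCT4:SOX2 motif (score 8.82), a SOX17 motif (11.9), an ESRRB motif (15.6) and a GATA6 motif (12.98), in that order. The second, accessible at d0 and 4808 bp from the start of Jam2, has the order ESRRB (11.1), GATA6 (9.88), OCT4:SOX2 (13.7) and SOX17 (12.3).
all 4 motifs, chr6:48022004-48022204 (+ strand): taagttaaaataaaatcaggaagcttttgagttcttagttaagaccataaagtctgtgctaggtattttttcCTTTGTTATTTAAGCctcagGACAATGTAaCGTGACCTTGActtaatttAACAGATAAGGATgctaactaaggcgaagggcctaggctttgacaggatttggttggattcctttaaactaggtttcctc
all 4 motifs, chr16:84769215-84769415 (+ strand): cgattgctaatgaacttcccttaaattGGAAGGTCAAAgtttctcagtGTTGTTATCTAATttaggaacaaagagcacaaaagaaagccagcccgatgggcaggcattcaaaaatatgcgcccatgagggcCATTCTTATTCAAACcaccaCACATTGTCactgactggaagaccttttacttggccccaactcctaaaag

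The 1348 regions lay on 20 chromosomes and made up between 1.62% (chromosome X) and 3.75% (chromosome 1) of the GATA6 regions of each. By the GENCODE annotation, 620 summits were intergenic, 541 in introns, 21 in exons and 166 within 1 kb of a transcript start. Neighbouring summits at most 10 kb apart joined 119 regions into 56 groups, the largest with 5, so that not all regions are independent sites. The mean width was 845 bp ± 415 (SD, n = 1348, range 195 to 3326 bp). The mean was 714 bp ± 336 (n = 3961) in the class without SOX17, 1222 bp ± 575 (n = 2901) in the Early&Constant class and 556 bp ± 269 (n = 750) in the class without PTFs. Width comes from the same GATA6 peaks as the rule and was not tested. Every test below treats each region as 1 observation, although neighbours and copies of 1 sequence are not independent. Differences between shares are given as the log2 odds ratio with its 95% interval, and p-values were adjusted over the 72 tests between classes (Benjamini-Hochberg).

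These regions were the most open of the compared classes before Dox. At d0, 483 of 1348 (35.8%, 95% Wilson interval 33.3 to 38.4) were in the class of highest ATAC-seq signal (accessible), 753 (55.9%) in the middle class (moderate) and 112 (8.31%) in the lowest (closed). The share of accessible regions was 23.1% in the class without SOX17, 12.2% in the Early&Constant class and 12.7% in the class without PTFs. The differences were 0.89 (95% interval 0.70 to 1.09, adjusted p = 1.4e-18, two-sided Fisher's exact test), 2.002 (1.77 to 2.23, adjusted p = 1.54e-66) and 1.94 (1.60 to 2.29, adjusted p = 1.54e-31), with the same direction on 19, 20 and 20 of 20 chromosomes. Closed regions were rarer than in each of these classes, in which they made up 15.2%, 33.7% and 36.9%. Within histone states, the first of these differences fell from -0.98 to -0.32 and no longer passed. Over all GATA6 regions, 7.43% were accessible and 61.3% closed.

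The histone marks of ES cells placed most of these regions in enhancer and promoter states. The active enhancer state was the commonest with 526 regions (39.0%), followed by the primed enhancer state with 299 (22.2%), the promoter state with 210 (15.6%), the poised enhancer state with 147 (10.9%), constitutive heterochromatin with 113 (8.38%), facultative heterochromatin with 27 (2.003%) and the naive state with 26 (1.93%). Active enhancers were more frequent than in the class without SOX17 (31.2%, difference 0.49, 0.31 to 0.68, Fisher's adjusted p = 4.11e-07), in the Early&Constant class (28.9%, 0.65, 0.46 to 0.85, adjusted p = 1.88e-10) and in the class without PTFs (13.1%, 2.09, 1.75 to 2.43, adjusted p = 1.66e-37). They were so on 17, 18 and 20 of 20 chromosomes. Within accessibility classes, however, the first of these differences was 0.17 and no longer passed, and that against the Early&Constant class was -0.25. Primed enhancers were rarer than in the class without SOX17 (30.9%, difference -0.65, Fisher's adjusted p = 1.42e-09) and the Early&Constant class (26.1%, -0.31, adjusted p = 0.0101), and more frequent than without PTFs (16.5%, 0.53, adjusted p = 0.00343). The difference from the Early&Constant class was 0.11 within accessibility classes and -0.21 without promoter summits, and passed in neither. Poised enhancers were rarer than without PTFs (24.7%, -1.42, Fisher's adjusted p = 2.23e-15) and without SOX17 (13.6%, -0.37, adjusted p = 0.0137), and more frequent than in the Early&Constant class (8.45%, 0.41, adjusted p = 0.0161), and neither of the last 2 differences passed within bins of region width.

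The promoter state was more frequent than in both other classes with PTFs. It covered 15.6% here against 6.01% without SOX17 (difference 1.53, 1.25 to 1.81, Fisher's adjusted p = 4.03e-24, 20 of 20 chromosomes) and 8.10% in the Early&Constant class (1.07, 0.78 to 1.35, adjusted p = 2.24e-12, 19 of 20 chromosomes). Against the latter it was -0.12 within accessibility classes. Against the class without PTFs the promoter state was rarer (19.3%, difference -0.38, Fisher's adjusted p = 0.0358). The difference changed sign when summits within 1 kb of a transcript start were left out, with the promoter state then more frequent in these regions (0.78). Such promoter summits made up 12.3% of these regions, against 6.84%, 7.96% and 20.3% in the 3 classes, and all 3 differences passed (0.94, 0.70 and -0.86). A further position measure was the presence of another, Early&Constant summit within 10 kb, which was found for 359 regions (26.6%). This was more frequent than in the class without SOX17 (17.0%, difference 0.82, 0.61 to 1.04, Fisher's adjusted p = 2.3e-13), rarer than in the Early&Constant class itself (35.8%, -0.62, adjusted p = 5e-09) and not different past the threshold from the class without PTFs (26.3%, 0.03, -0.27 to 0.32). The class of a neighbour comes from the same GATA6 clustering as the rule. These differences are therefore not independent of how the classes were formed.

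Facultative heterochromatin and the naive state were rare among these regions. They reached 3.23%, 7.58% and 14.3% (facultative heterochromatin) and 6.06%, 14.2% and 3.87% (naive state) in the 3 classes, all above the values given for these regions, with differences from -0.71 to -3.08 that passed. Within accessibility classes, the naive state was instead more frequent than in the class without PTFs (1.01, passing), and the differences in facultative heterochromatin from the class without SOX17 (-0.064) and the Early&Constant class (-0.29) no longer passed. Constitutive heterochromatin did not differ past the threshold from any of them (8.94%, 6.65% and 8.27%, differences -0.10, 0.36 and 0.02 with intervals of -0.42 to 0.22, 0.01 to 0.71 and -0.44 to 0.49). When copies of 1 sequence were counted once, it was rarer than in the class without SOX17 (-0.69, passing). Other settings moved it both ways, since it was more frequent than in the Early&Constant class (0.95) and the class without PTFs (0.92) within accessibility classes, and rarer than in the Early&Constant class (-0.50) within bins of region width. The window around the summit was 47.9% ± 6.19 GC (SD, n = 1348), which was 3.01 percentage points above the class without SOX17, 2.59 above the Early&Constant class and 2.13 below the class without PTFs (Welch's test, adjusted p from 2.04e-52 to 2.51e-11).

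**Figure D1:**
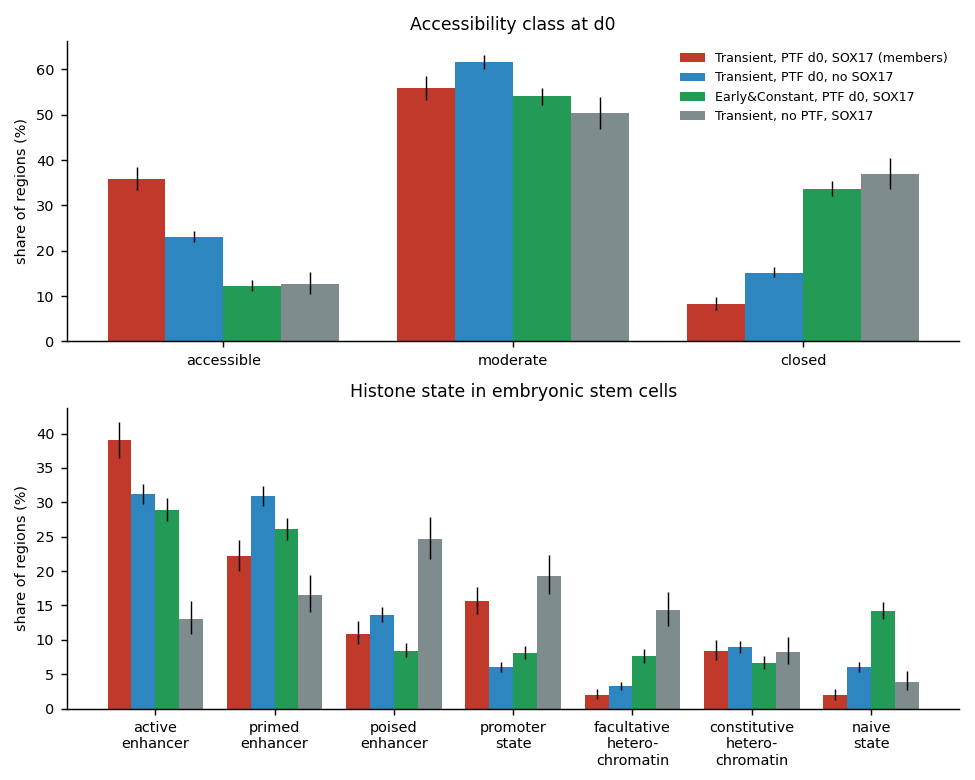
Share of regions (%) in each accessibility class at d0 (upper panel) and in each histone state of ES cells (lower panel), for the 1348 regions (red) and the 3 classes compared with them. Bars are shares and lines are 95% Wilson intervals; the red bar is the highest of the 4 classes for accessible (35.8%) and active enhancer (39.0%) and the lowest of the 4 for closed (8.31%), facultative heterochromatin (2.003%) and the naive state (1.93%).

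The next comparison concerned GATA6 binding when OCT4 is depleted. By the published methods, GATA6 binding was measured 48 h after Dox and siRNAs were given together, and at no other time. In the authors' classes, knockdown of Oct4 (Pou5f1) during GATA6 induction lowered GATA6 binding at 281 of the 1348 regions (20.8%, 18.8 to 23.1), against 6.25% of all 42403 regions. It raised binding at 11 (0.816%), against 8.57% of all regions. These shares count calls that passed the authors' limits on fold change and false discovery rate. The number of GATA6 reads of a region can bear on such calls, and its part in the differences was not tested. The share with lowered binding was above that of the class without SOX17 (6.69%, difference 1.88, 1.62 to 2.14, Fisher's adjusted p = 1.07e-42, 20 of 20 chromosomes) and that of the class without PTFs (8.13%, difference 1.57, 1.15 to 1.995, adjusted p = 1.32e-14, 19 of 20 chromosomes). Against the Early&Constant class (18.5%) the difference was 0.21 (-0.02 to 0.45, Fisher's adjusted p = 0.0863, 12 of 20 chromosomes) and did not pass. Regions of that class were wider, and within 10 bins of region width the difference was 0.57 (n = 1348 and 2901 regions, adjusted p = 9.45e-06, Mantel-Haenszel odds ratio).

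Raised binding was rare but not equally so. The 11 regions with raised binding (0.816%) compare with 4 of 3961 (0.101%) without SOX17 (difference 3.02, 1.37 to 4.68, Fisher's adjusted p = 0.000225, 7 of 20 chromosomes), 156 of 2901 (5.38%) in the Early&Constant class (difference -2.79, adjusted p = 5.22e-15) and 18 of 750 (2.40%) in the class without PTFs (difference -1.58, adjusted p = 0.00803). Among the states of these 1348 regions, lowered binding was found in 16 of 27 in facultative heterochromatin (59.3%), 47 of 147 poised enhancers (32.0%), 74 of 299 primed enhancers (24.7%) and 28 of 113 in constitutive heterochromatin (24.8%). It was found in 87 of 526 active enhancers (16.5%) and 23 of 210 in the promoter state (10.95%). These shares are given as a description.

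Motifs were compared in windows of 1 length, 100 bp to each side of the summit, because region width differed between classes. All 4 motifs were more frequent at the summits of these regions than in control windows 3 kb to each side that lay in no GATA6 region. A SOX17 motif was present in 766 windows (56.8%, 54.2 to 59.4, against 28.2% of 2552 control windows), an OCT4:SOX2 motif in 719 (53.3%, 50.7 to 55.99, against 36.6%), a GATA6 motif in 677 (50.2%, 47.6 to 52.9, against 33.5%) and an ESRRB motif in 299 (22.2%, 20.0 to 24.5, against 11.4%). Around the summit, within 30 bp, the densities were 4.95 SOX17, 5.48 OCT4:SOX2 and 4.47 GATA6 motifs per kb, and 1.803, 2.32 and 2.03 at distances of 400 bp or more. The median distance of the best motif from the summit was 38 bp for SOX17, 33 bp for OCT4:SOX2, 35 bp for GATA6 and 53 bp for ESRRB.

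The GATA6 motif was rarer at these regions than in each compared class. It was present in 60.0% of windows without SOX17 (difference -0.57, -0.75 to -0.39, Fisher's adjusted p = 8.94e-10, 17 of 20 chromosomes), in 77.2% of the Early&Constant class (-1.75, -1.95 to -1.55, adjusted p = 2.97e-66, 20 of 20 chromosomes) and in 66.1% without PTFs (-0.95, -1.22 to -0.69, adjusted p = 5.61e-12, 18 of 20 chromosomes). Where present, its mean score of 9.33 ± 2.32 (SD, n = 677) was also below the 10.4 ± 2.45 (n = 2241) of the Early&Constant class and the 10.1 ± 2.43 (n = 496) of the class without PTFs (Welch's test, adjusted p = 6.82e-23 and 1.62e-08). The difference from the class without SOX17 was small (9.55 ± 2.35, n = 2378, adjusted p = 0.0393) and no longer passed when copies of 1 sequence were counted once. Over whole regions, the share with a GATA6 motif did not differ past the threshold from the class without PTFs (-0.23), and within accessibility classes that difference was -0.34 and passed.

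The SOX17 motif set these regions apart from Transient regions without SOX17, and less clearly from the others. It was present in 39.9% of the windows without SOX17 (difference 0.99, 0.81 to 1.17, Fisher's adjusted p = 2.32e-26, 19 of 20 chromosomes). The rule separated these regions from that class by SOX17 peaks, so a difference in the motif of SOX17 is close to the rule itself. The difference was 0.76 when windows with 50% or more repeat-masked bases were left out, and it passed. With 1 region per sequence family, at 50 or more shared words, the difference was 0.72 and passed as well. Against the Early&Constant class (53.8%) it was 0.18 (-0.01 to 0.37, Fisher's adjusted p = 0.0723) and against the class without PTFs (50.8%) 0.35 (0.09 to 0.61, adjusted p = 0.0118, 15 of 20 chromosomes). The latter did not pass without repeat windows (0.26) or with 1 region per family (0.19). Where present, the SOX17 motif scored 9.50 ± 1.58 (SD, n = 766), below the 9.71 ± 1.65 (n = 1560) of the Early&Constant class (adjusted p = 0.00468), while the differences from the other classes did not pass.

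The OCT4:SOX2 motif took an intermediate place. It was present in 53.3% of these windows, in 77.1% of those without SOX17 (difference -1.56, -1.74 to -1.37, Fisher's adjusted p = 2.07e-57, 20 of 20 chromosomes), in 49.1% of the Early&Constant class (0.25, 0.06 to 0.43, adjusted p = 0.0138, 13 of 20 chromosomes) and in 28.8% without PTFs (1.499, 1.22 to 1.77, adjusted p = 4.42e-27, 20 of 20 chromosomes). Its mean score of 9.71 ± 3.42 (SD, n = 719) followed the same order, with 10.7 ± 3.44 (n = 3053), 9.05 ± 3.17 (n = 1424) and 7.39 ± 1.86 (n = 216), and all 3 differences passed (-0.99, 0.66 and 2.32). Over whole regions instead of windows, the motif was rarer than in the wider Early&Constant regions (-1.25). The difference in OCT4:SOX2 motifs from that class also no longer passed within bins of region width or in windows of 200 bp to each side. That in the OCT4:SOX2 score no longer passed over whole regions. The ESRRB motif was somewhat more frequent than in the 3 classes (19.0%, 17.2% and 16.5%, differences 0.28, 0.46 and 0.53, adjusted p = 0.0186, 0.000211 and 0.00343), and its mean score (9.77 ± 3.78, n = 299) did not differ past the threshold from any of them. The first of these ESRRB differences was lost under 5 settings, among them without repeat windows (0.078) and with 1 region per family (0.099), and the third without repeat windows (0.32), without promoter summits (0.30) and within histone states (0.32). That from the Early&Constant class was 0.16 in windows of 200 bp to each side and no longer passed, and over whole regions it was reversed (-0.42, passing). The class without PTFs was set apart by peaks of OCT4, SOX2 and ESRRB. Comparisons of the OCT4:SOX2 and ESRRB motifs with that class are therefore close to the rule as well.

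**Figure D2:**
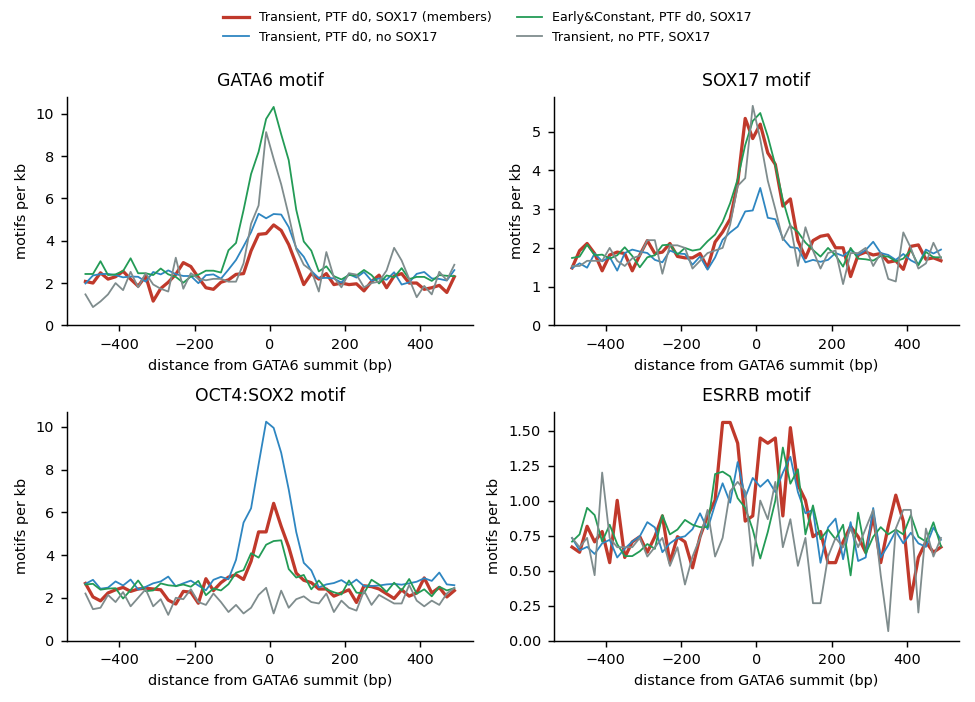
Motif centres per kb of sequence in bins of 20 bp up to 500 bp from the GATA6 summit, 1 panel per motif, for the 1348 regions (red) and the 3 compared classes. The red line peaks at the summit for SOX17 (highest bin 5.34 per kb), OCT4:SOX2 (6.42) and GATA6 (4.75) and is above its flanks for ESRRB (highest bin 1.56); each panel has its own scale.

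Combinations of motifs in 1 window were counted next. Of the 1348 windows, 93 held none of the 4 motifs, 395 held 1 kind, 550 held 2, 274 held 3 and 36 held all 4. The commonest combinations were GATA6 with SOX17 and OCT4:SOX2, and SOX17 with OCT4:SOX2 alone, in 163 windows each (12.1%). The first of these made up 12.03% of all regions, 14.4% of the class without SOX17 and 17.4% of the Early&Constant class, and the second 4.15%, 11.2% and 5.83%. A SOX17 and an OCT4:SOX2 motif were both present in 412 windows (30.6%, against 31.3% in the class without SOX17, 27.0% in the Early&Constant class and 18.9% of all regions), in which the best motifs overlapped in 84 (20.4%) and their centres lay a median of 39.5 bp apart, so that they mostly stood at separate places. SOX17 and SOX2 motifs share their core, and overlapping matches are therefore not separate sites.

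The spacing of the OCT4 and SOX half-sites was counted by searching both strands of these windows for the letters TTGT followed in the same orientation by ATGCA. Only these exact letters were counted, so that half-sites with other letters were left out. An OCT4:SOX2 motif by score was present in 719 windows, and the shares below are not the shares of all sites with that spacing. With 1 base between them (the canonical spacing of OCT4 and SOX2) they were found in 14 of the 1348 windows (1.04%, 0.62 to 1.74), against 0.196% of control windows. With 0 bases between them (the compressed spacing of OCT4 and SOX17) they were found in 16 (1.19%, 0.732 to 1.92), against 0.118% of control windows. At each spacing from 2 to 10 bases, 3 to 9 windows held the pair. Over all 42403 regions, the canonical spacing was found in 0.521% of windows and the compressed spacing in 0.410%.

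Transient regions without SOX17 had the canonical spacing more often and the compressed spacing less often than these regions. There the canonical spacing was found in 101 of 3961 windows (2.55%, difference -1.32, -2.13 to -0.51, Fisher's adjusted p = 0.00117, 17 of 20 chromosomes) and the compressed spacing in 7 (0.177%, difference 2.76, 1.48 to 4.05, adjusted p = 1.92e-05, 9 of 20 chromosomes). In the Early&Constant class they were found in 15 (0.517%) and 18 (0.620%) of 2901 windows, with differences of 1.01 (Fisher's adjusted p = 0.0776) and 0.94 (adjusted p = 0.0723) that did not pass. In the class without PTFs each was found in 1 of 750. The member with the highest GATA6 score was the same region for both spacings. It lies on chromosome 1, intergenic, closed at d0 and in the naive state, and its window holds both arrangements, a GATA6 motif of score 13.7 and a SOX17 motif of 8.28. The lines show the half-sites in capitals, the compressed pair on the plus strand and the canonical pair on the minus strand.
compressed, chr1:28321466-28321515 (+ strand): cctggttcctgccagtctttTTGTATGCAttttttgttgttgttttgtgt
canonical, chr1:28321369-28321418 (+ strand): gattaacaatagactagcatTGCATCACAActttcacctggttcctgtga

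**Figure D3:**
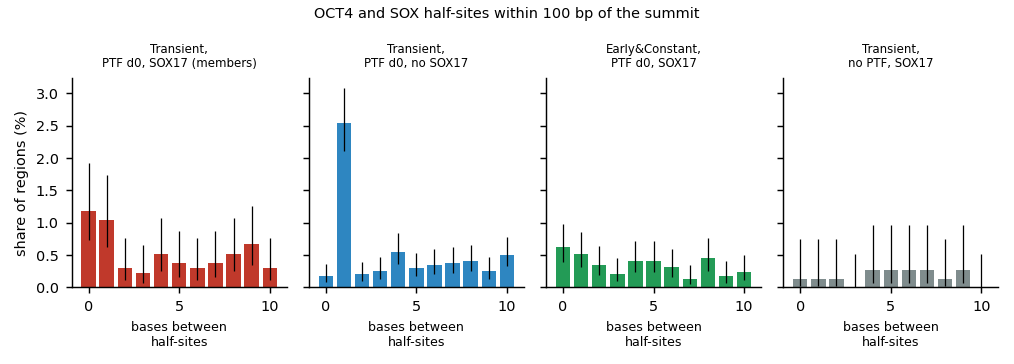
Share of windows within 100 bp of the summit (%) in which TTGT and ATGCA stand in the same orientation with 0 to 10 bases between them, 1 panel per class. Bars are shares and lines 95% Wilson intervals; among the 1348 regions (red) the bars at 0 (1.19%) and 1 (1.04%) are the highest, while Transient regions without SOX17 (blue) reach 2.55% at 1 and 0.177% at 0.

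Among the 1348 regions, those that were closed at d0 differed from the accessible ones in their GATA6 motifs and in their response to Oct4 knockdown. A GATA6 motif was present in 87 of 112 closed regions (77.7%, 69.1 to 84.4), 417 of 753 moderate ones (55.4%) and 173 of 483 accessible ones (35.8%, 31.7 to 40.2). Closed and accessible regions differed by 2.64 (1.95 to 3.34, adjusted p = 1.03e-14 over the 17 tests among these regions, Fisher's exact test), and where present the motif scored 10.5 ± 2.58 (SD, n = 87) and 8.40 ± 1.89 (n = 173), a difference of 2.11 (1.497 to 2.72, adjusted p = 3.43e-09, Welch's test). The share of accessible regions with a GATA6 motif may be set beside the 33.5% of the control windows of all 1348. Mean GC of the windows differed as well, with 43.4% ± 4.93 in closed, 46.8% ± 5.33 in moderate and 50.8% ± 6.47 in accessible regions. Its part in the motif shares was not tested. The same contrast in the share with a GATA6 motif was 2.99 in the class without SOX17, 2.44 in the Early&Constant class and 2.86 in the class without PTFs, none different past the threshold from the 2.64 here. SOX17, OCT4:SOX2 and ESRRB motifs were present in 52.7%, 58.0% and 16.1% of closed and 55.7%, 51.8% and 20.7% of accessible regions, and these differences did not pass (intervals of -0.77 to 0.42, -0.23 to 0.97 and -1.24 to 0.35).

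Lowered GATA6 binding after Oct4 knockdown was found in 37 of the 112 closed regions (33.0%, 25.01 to 42.2), 185 of the 753 moderate ones (24.6%) and 59 of the 483 accessible ones (12.2%, 9.59 to 15.4). Closed and accessible regions differed by 1.83 (1.14 to 2.52, Fisher's adjusted p = 3.26e-06). The contrast in lowered binding was 2.17 in the class without SOX17, 0.64 in the Early&Constant class and 3.76 in the class without PTFs, where it rests on 1 accessible region. The contrast was larger in the 1348 regions than in the Early&Constant class by 1.19 (0.35 to 2.02, n = 112 closed and 483 accessible regions here, adjusted p = 0.0316 over 6 such tests, added after the data were seen), and did not differ past the threshold from that in the other classes.

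The 281 regions with lowered binding were also compared with the 1056 with unchanged binding. An OCT4:SOX2 motif was present in 61.2% of the former and 51.2% of the latter (difference 0.59, 0.20 to 0.97, Fisher's adjusted p = 0.0104). The mean score of the SOX17 motif was lower, 9.09 ± 1.34 (n = 142) against 9.59 ± 1.62 (n = 616), a difference of -0.51 (adjusted p = 0.000545). GATA6 motifs (56.6% and 48.7%) and SOX17 motifs (50.5% and 58.3%) fell just short of the threshold (Fisher's adjusted p = 0.0516 for each). Regions with lowered binding were wider (1003 bp ± 455 against 802 bp ± 394), and the part of width in these differences is addressed by the comparison within 3 width bins, which changed no call but lowered the difference in GATA6 motifs from 0.46 to 0.15. Over whole regions the latter was 1.23 and passed, and the difference in SOX17 motifs changed sign (0.34, not passing).

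**Figure D4:**
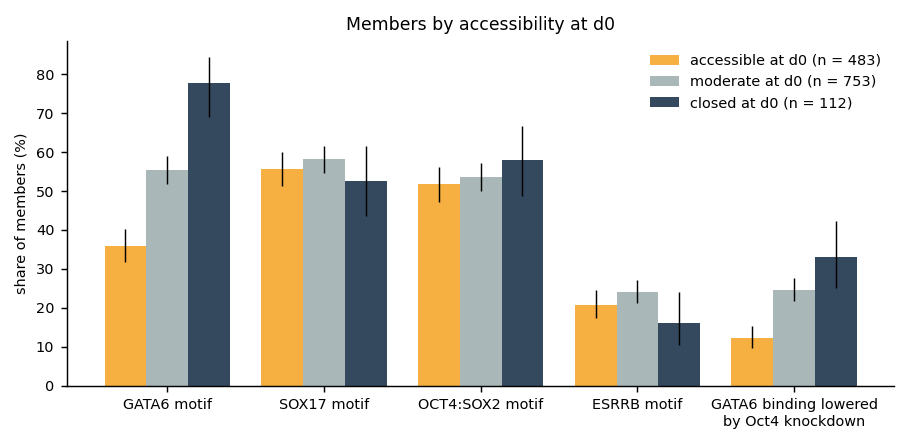
Share of the 1348 regions (%) with each motif within 100 bp of the summit, and with GATA6 binding lowered by Oct4 knockdown, split by accessibility at d0 into accessible (n = 483), moderate (n = 753) and closed (n = 112). Bars are shares and lines 95% Wilson intervals; the GATA6 motif goes from 35.8% to 77.7% and lowered binding from 12.2% to 33.0% from accessible to closed, while the other 3 motifs have overlapping intervals.

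The sequence families shown at the start differed in their motifs, and the values are given as a description because the families were found in the same sequences. Family 1, with 154 regions on 20 chromosomes, had a SOX17 motif in 136 windows (88.3%), of which 96 were TCTATTGTT, and an ESRRB motif in 69 (44.8%), of which 21 were GCAAGGTCAAA. In the 66 windows of family 1 with both, the motif centres lay 57 bp apart in 26 and within 5 bp of that distance in 43. A GATA6 motif was present in 42 of its windows (27.3%). TCTATTGTT was the best SOX17 motif of 121 of the 766 windows with one (15.8%), against 3.09% of the 18271 such windows over all regions. Outside the families a SOX17 motif was present in 548 of 1066 windows (51.4%).

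Family 2 (68 regions) had a SOX17 motif in 60 windows, most often GCCATTGTG (22), and an OCT4:SOX2 motif in 51. Family 3 (22 regions) had fewer motifs, with SOX17 in 12 windows, and 14 of its regions were in constitutive heterochromatin. All 20 windows of family 4 had an OCT4:SOX2 motif, 14 of them CTTTATTTTACAAAT, and 18 had a GATA6 motif, most often GGCAGATAAAAGG (5). Both motifs of family 4 lay 29 bp apart, centre to centre, in 13 of these 18. The mean OCT4:SOX2 score was 7.76 in family 4 and 10.1 outside the families. Oct4 knockdown lowered GATA6 binding at 15 of the 20 regions of family 4 and at 10 of the 22 of family 3, compared with 30 of 154, 8 of 68 and 6 of 18 in families 1, 2 and 5 and 212 of 1066 (19.9%) outside the families. Families 3 and 4 held 0 accessible regions, against 400 of the 1066 outside. Among all accessible members, 12.2% had lowered binding, and the part of accessibility in the family shares was not tested. Each of the 18 windows of family 5 had an OCT4:SOX2 motif, most often GATTGAGTTGCAAAG (5).

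Most of these copies lay in sequence that the reference marks as repeats. The share of repeat-masked bases per window was 67.8% ± 19.9 (SD, n = 154), 74.1% ± 14.8 (n = 68), 79.4% ± 20.0 (n = 22), 84.7% ± 14.2 (n = 20) and 47.9% ± 21.3 (n = 18) in families 1 to 5 and 14.2% ± 17.3 (n = 1066) outside. Windows with 50% or more such bases made up 21.6% of the 1348 regions, 17.6% of the class without SOX17, 12.8% of the Early&Constant class, 10.3% of the class without PTFs and 10.3% of all regions. The authors kept only reads with a high mapping quality, which bears on copies of similar sequence, and the effect of this filter on these regions was not tested.

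**Figure D5:**
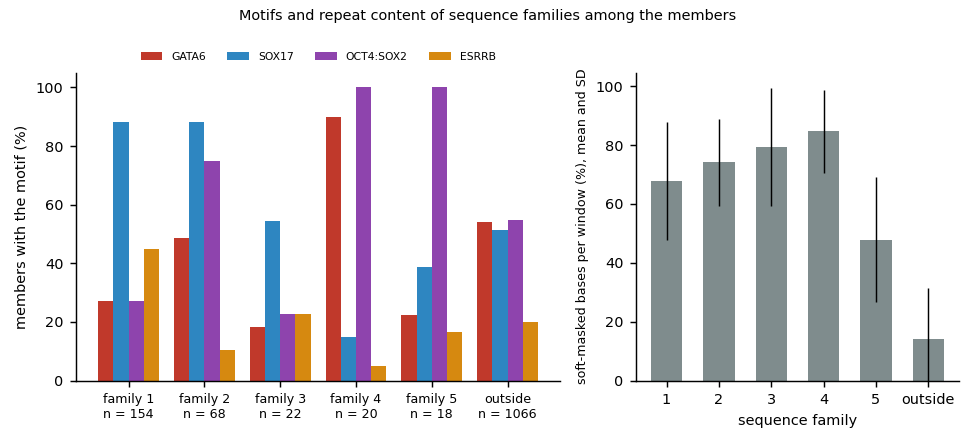
Left, share of regions (%) with each of the 4 motifs within 100 bp of the summit for the 5 sequence families and the 1066 regions outside them; right, percent of repeat-masked bases per window, as mean (bar) and SD (line). SOX17 motifs are in 88.3% of family 1, OCT4:SOX2 motifs in 100% of families 4 and 5, and repeat content is highest in family 4 (84.7%) and lowest outside the families (14.2%).

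The genes near these regions were counted from 4 lists, by the number of genes with at least 1 of the 1348 summits within 100 kb of a transcript start. Of 25 genes of naive pluripotency, 16 (64%) had one, against 2990 of 21924 protein-coding genes (13.6%). Of 20 genes of FGF, LIF, BMP and NODAL signalling, 9 (45%) had one, of 10 formative and epiblast genes 3 (30%), and of 25 primitive endoderm regulators and markers 3 (12%). With a GATA6 region of any class the counts were 25, 20, 9 and 25, and 87.6% of all protein-coding genes. These counts are a description without a test, because the lists were chosen with results of these data known and neighbouring genes share regions. The rule also asked for PTFs at d0, and the genes near the 3 compared classes were not counted.

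Near some of the naive pluripotency genes, the nearest region was within a few kb of the start and accessible at d0. It lay 4859 bp upstream of Nanog, 1959 bp upstream of Pou5f1, which encodes OCT4, and 1334 bp upstream of Tfcp2l1. It lay 943 bp downstream of the start of Esrrb and 2036 bp upstream of Tdgf1, the co-receptor of NODAL. All 5 were accessible, and those of Esrrb and Pou5f1 had OCT4:SOX2 motifs of score 13.9 and 13.6 and had GATA6 binding lowered by Oct4 knockdown. The region 1655 bp upstream of Mycn, a proliferation factor, and the region at the start of Tcl1, a coactivator of AKT kinase, were lowered as well. The region of Klf2, 15397 bp downstream of its start, held all 4 motifs, with scores of 8.48 for GATA6, 10.1 for SOX17, 10.6 for OCT4:SOX2 and 12.2 for ESRRB. The nearest region of Zfp42, 46882 bp upstream, was a copy of family 4. The remaining 7 genes, Klf5, Prdm14, Tbx3, Dppa3 (through the region of Nanog), Nr5a2, Tet2 and Sall4, had their nearest region 8934 to 79411 bp away. Klf4, Sox2, Fgf4, Dppa5a, Nr0b1, Zfp281, Utf1, Gbx2 and Stat3 had none within 100 kb.

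Near signalling genes, the nearest region lay 1887 bp upstream of Nodal, the ligand, and held a GATA6 motif of score 14.0. The region 3360 bp upstream of Socs3, an inhibitor of LIF signalling, had a GATA6 motif of 13.6, and the region 13655 bp upstream of Lifr, the LIF receptor, an OCT4:SOX2 motif of 15.1. Spry2 and Spry4, inhibitors of FGF signalling, had regions 1025 and 449 bp upstream, both accessible and in the promoter state. The ETS factors Etv4 and Etv5 had regions in introns, and the one of Etv5 had an ESRRB motif of score 16.5 and lowered GATA6 binding after Oct4 knockdown. The list also holds Tdgf1 and Id2, an inhibitor of helix-loop-helix factors, whose region lay 11714 bp upstream and was lowered.

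The formative genes with a region were the DNA methyltransferases Dnmt3a and Dnmt3b, both with lowered binding, and Tcf7l1, a repressor of the WNT pathway. The OCT4:SOX2 motif at Dnmt3b, 26694 bp upstream, scored 16.8. The 3 primitive endoderm genes were Sox7 (49591 bp), Lamc1, which encodes a laminin chain (16298 bp), and Lrp2, an endocytic receptor (41681 bp), each downstream of the start and in the moderate class. Gata6, Gata4 and Sox17 were among the 22 genes of the list without one. The most regions within 100 kb of a gene were 4, which was reached by 11 genes. By the alphabet, the first 5 were Akap12, Arhgap26, Arhgef19, B3gnt7 and Epha2, with 2 to 4 of their regions accessible and none lowered by Oct4 knockdown. Among the other tied genes, Tcl1b1, Tcl1b2 and Tcl1b5, chosen after their values were seen, each had 0 of 4 regions accessible and 2 lowered. Genes next to each other, such as Arhgef19 and Epha2 on chromosome 4, can share these regions.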

How the data were processed

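The deposited table of GATA6 binding regions was used, with regions as units. By the published methods, reads were mapped to mm10 with bowtie2 by the authors, and MACS2 peaks of pooled replicates were retained only when each replicate had them. They clustered GATA6 signal by k-means, classed SOX17 and PTF binding by called peaks, accessibility by ATAC-seq and histone state by public ES cell data, and called the response to Oct4 knockdown from GATA6 reads after Oct4 and control siRNAs. Motif scores were deposited as FIMO log-odds scores, without normalization. A further 59 columns of signal match no library of the series and 12 group motif values, and neither were used.

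The 4 matrices were recovered by least squares from the deposited motifs and their scores, and a rescan of whole regions gave the deposited call of presence in 99.899% (OCT4:SOX2) to 99.976% (GATA6) of them. The same matrices were then used on windows of 100 bp to each side of the summit, with the lowest deposited score of each motif as the limit. Repeat-masked bases are those in lower case in the RefSeq sequence of GRCm38. Summits were annotated with GENCODE M21. Shares were compared by two-sided Fisher's exact tests with 95% Woolf intervals of the log2 odds ratio, and means by Welch's test, with an adjusted p under 0.05 called past the threshold. The tests were checked on simulated data with scipy 1.17.1 under Python 3.11.15, and figures were drawn with matplotlib 3.10.9. Alternatives were strata of region width, accessibility and histone state (Mantel-Haenszel odds ratios), wider windows, whole regions, stricter scores, and regions left out (promoter summits, chromosomes X and Y, repeat windows, copies of 1 sequence). For the last of these, families of any size were formed over the 4 classes together at 50 or more shared words. In each class, 1 region per family was kept.

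Named were the regions with the highest score of each motif, the 3 with all 4 motifs and the highest summed score, the region with the highest GATA6 score for each half-site spacing, the region nearest to each gene of the 4 lists within 100 kb, and the 5 genes with the most regions (ties by name). Regions on chromosome 18 were left out of the choices by motif score and half-site spacing and of the printed copies. Families, their printed copies and motifs, and the genes without a region, were chosen after their values were seen. The regions and lists were chosen with earlier results of these data known. The columns used give no counts or replicates, so intervals cover the spread over regions only.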

Additional observations from a re-analysis of the deposited data

Results flagged for a closer look

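The contrast between regions closed and accessible at d0 in their response to Oct4 knockdown differed between the 1348 regions and the Early&Constant class with PTFs from d0 and SOX17. GATA6 binding was lowered in 37 of 112 closed and 59 of 483 accessible regions here, a log2 odds ratio of 1.83 (1.14 to 2.52), and in 221 of 978 closed (22.6%) and 56 of 355 accessible regions (15.8%) of the Early&Constant class, a log2 odds ratio of 0.64 (0.18 to 1.11). The difference of both log2 odds ratios was 1.19 (0.35 to 2.02, n = 112 closed and 483 accessible regions here, adjusted p = 0.0316 over 6 tests, normal approximation with each region as 1 observation). The test was added after the data were seen.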

How the results depend on the processing

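Of the 566 values recomputed under another setting, 461 kept their direction and their side of the threshold, 43 lost a call, 27 gained one and 35 changed sign. Leaving out chromosomes X and Y changed 1 call, and counting moderate regions as accessible or promoters within 500 bp changed none. The larger share of accessible regions, the rarer GATA6 motif than in the classes without SOX17 and Early&Constant, the more frequent SOX17 motif and the rarer OCT4:SOX2 motif than in the class without SOX17, and the larger share of lowered binding than in that class and in the class without PTFs kept their calls under every setting in which they were recomputed. The settings with repeat windows left out, with 1 region per sequence family and within histone states, and the other limits on shared words, were chosen after seeing the data. The differences below are log2 odds ratios or differences of mean scores, as the value in the 1348 regions minus that in the class named after it, or between the named groups of these regions. The cause of these changes was not tested. Within 10 bins of region width, OCT4:SOX2 motifs (0.19 Early&Constant), canonical OCT4 and SOX spacing (2.78 without PTFs) and poised enhancers (0.25 Early&Constant, -0.24 without SOX17) no longer passed. The ESRRB score (0.73 Early&Constant), canonical OCT4 and SOX spacing (1.27 Early&Constant), constitutive heterochromatin (0.72 without PTFs) and lowered binding (0.57 Early&Constant) newly passed there. An Early&Constant neighbour (-0.089 without PTFs), SOX17 motifs (-0.12 Early&Constant) and constitutive heterochromatin (-0.50 Early&Constant, 0.14 without SOX17) changed sign there. Within 3 width bins of the 1348 regions, the ESRRB score (-0.011 lowered minus unchanged) and the GATA6 score (-0.028 lowered minus unchanged) changed sign. Without promoter summits, ESRRB motifs (0.30 without PTFs), SOX17 motifs (0.14 without PTFs), the GATA6 score (-0.18 without SOX17), canonical OCT4 and SOX spacing (2.73 without PTFs), facultative heterochromatin (-0.60 without SOX17), poised enhancers (-0.27 without SOX17) and primed enhancers (-0.21 Early&Constant) no longer passed. Constitutive heterochromatin (0.45 Early&Constant) newly passed there. An Early&Constant neighbour (-0.041 without PTFs), constitutive heterochromatin (-0.053 without PTFs) and the promoter state (0.78 without PTFs) changed sign there. Without chromosomes X and Y, the promoter state (-0.36 without PTFs) no longer passed. With motifs of the whole region, GATA6 motifs (-0.23 without PTFs), the OCT4:SOX2 score (0.069 Early&Constant) and the SOX17 score (-0.24 lowered minus unchanged) no longer passed. ESRRB motifs (0.52 lowered minus unchanged), GATA6 motifs (1.23 lowered minus unchanged), OCT4:SOX2 motifs (1.76 closed minus accessible), the ESRRB score (0.69 without PTFs), the GATA6 score (0.44 lowered minus unchanged) and the SOX17 score (0.35 without SOX17) newly passed there. ESRRB motifs (-0.42 Early&Constant, 0.22 closed minus accessible), OCT4:SOX2 motifs (-1.25 Early&Constant), SOX17 motifs (-0.75 Early&Constant, 0.70 closed minus accessible, 0.34 lowered minus unchanged), the ESRRB score (0.56 closed minus accessible) and the SOX17 score (0.20 without PTFs) changed sign there. In windows of 200 bp to each side of the summit, ESRRB motifs (0.16 Early&Constant, 0.14 without SOX17), OCT4:SOX2 motifs (0.14 Early&Constant) and SOX17 motifs (0.29 without PTFs) no longer passed. The ESRRB score (0.53 Early&Constant, 0.82 without PTFs), the SOX17 score (0.18 without SOX17) and canonical OCT4 and SOX spacing (1.27 Early&Constant) newly passed there. With only scores at or above the median, ESRRB motifs (0.28 without SOX17) and SOX17 motifs (0.00064 without PTFs) no longer passed. SOX17 motifs (-0.24 Early&Constant) changed sign there. With the mean score per region, the ESRRB score (0.42 Early&Constant) and the SOX17 score (0.15 without SOX17) newly passed. The SOX17 score (0.036 Early&Constant) changed sign there. Within accessibility classes, active enhancers (0.17 without SOX17) and facultative heterochromatin (-0.29 Early&Constant, -0.064 without SOX17) no longer passed. Constitutive heterochromatin (0.95 Early&Constant, 0.92 without PTFs) and lowered binding (0.49 Early&Constant) newly passed there. The active enhancer (-0.25 Early&Constant), constitutive heterochromatin (0.19 without SOX17), the naive state (1.01 without PTFs), primed enhancers (0.11 Early&Constant) and the promoter state (-0.12 Early&Constant) changed sign there. With neighbours counted within 50 kb, an Early&Constant neighbour (-0.12 without PTFs) changed sign. Within the 7 histone states, ESRRB motifs (0.20 without SOX17, 0.32 without PTFs) and the closed class (-0.32 without SOX17) no longer passed. SOX17 motifs (0.27 Early&Constant) and lowered binding (0.46 Early&Constant) newly passed there. Without repeat windows, ESRRB motifs (0.078 without SOX17, 0.32 without PTFs), SOX17 motifs (0.26 without PTFs), the GATA6 score (-0.13 without SOX17), facultative heterochromatin (-0.58 without SOX17), poised enhancers (-0.25 without SOX17), the promoter state (-0.24 without PTFs) and raised binding (-1.26 without PTFs) no longer passed. The SOX17 score (0.27 without SOX17) and constitutive heterochromatin (-0.56 without SOX17) newly passed there. SOX17 motifs (-0.013 Early&Constant, 0.20 closed minus accessible), the ESRRB score (-0.032 Early&Constant, -0.13 without SOX17), the GATA6 score (-0.029 lowered minus unchanged) and constitutive heterochromatin (-0.48 without PTFs) changed sign there. With 1 region per sequence family, ESRRB motifs (0.099 without SOX17), SOX17 motifs (0.19 without PTFs), the GATA6 score (-0.14 without SOX17), the SOX17 score (-0.17 Early&Constant), facultative heterochromatin (-0.52 without SOX17), poised enhancers (-0.23 without SOX17), primed enhancers (0.40 without PTFs) and the promoter state (-0.18 without PTFs) no longer passed. The SOX17 score (0.27 without SOX17), compressed OCT4 and SOX spacing (1.27 Early&Constant) and constitutive heterochromatin (-0.69 without SOX17) newly passed there. SOX17 motifs (-0.043 Early&Constant), the ESRRB score (-0.19 without SOX17) and constitutive heterochromatin (-0.11 Early&Constant, -0.68 without PTFs) changed sign there. Over the numbers of shared words, 282 regions were in families at 20 words, 254 at 30 and 213 at 50. Within 50 kb instead of 100 kb, 13 of 25 naive pluripotency, 9 of 20 signalling, 2 of 10 formative and 3 of 25 primitive endoderm genes had one of the 1348 regions. No paired analysis was possible because no library entered a test and the columns used carry no replicate numbers. Since the columns give no counts or replicates, depth and the error between replicates could not be taken into account.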
